A study of Rattus norvegicus with 17 samples.

Results

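Hair cycle signalling genes and regulators, 43 genes of the Wnt, hedgehog, BMP, FGF and ectodysplasin pathways together with follicle transcription factors and the hairless gene Hr, were examined in rat skin. They were chosen as a list of symbols and found through the sequence name of each array probe. Of the 43 genes 37 had a probe with their name, out of 15154 genes so named on the array. A probe was kept where it lay well above background on at least 8 of the 17 arrays, and 31 of the 37 genes had a kept probe, out of 11166 genes. The skin was that of CD Hairless rats, all male and aged 2 to 3 months at the outset. Exposed rats received 94 GHz millimetre waves in sessions of 3 h, with 3 sessions a week, for 5.5 months, and the others were sham exposed. There were 9 exposed and 8 sham arrays, each hybridised with Cy3-labelled cRNA from skin explants, of which 15 to 20 mg was extracted. All of the rats were of the hairless strain, so no haired skin served as a comparison, and the labels name neither the gene behind the trait nor the body site. According to the series description 6 animals were exposed and 8 were sham. The labels tie no array to an animal, so some of the 9 exposed arrays may share one, in which case the p-values of tests that use those arrays may be too small. Rats were housed in pairs, and nothing beyond the variation from array to array enters the tests.

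The hair follicle passes through repeated phases of growth (anagen), regression (catagen) and rest (telogen). In mice, Wnt signalling through beta-catenin and sonic hedgehog drive the start of growth, BMP signals hold stem cells at rest and later direct the matrix cells to form the hair shaft, and FGF and ectodysplasin ligands tune both steps. The transcription factors of the list act in the matrix, the hair shaft and its inner root sheath, or in the stem cell region, and Hr with the vitamin D receptor is needed for the follicle to regrow after its first cycle in mice.

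None of the 31 measured genes passed limma's test of exposed against sham skin. Over the 17 arrays 11 of them, led by Lef1, Msx2, Lgr5 and Nog, rose with the messenger RNA of hair shaft and inner root sheath proteins. Lgr5 and Nog were dim on some arrays. Under an alternative background correction both rose less steeply, and Lgr5 no longer passed. The hedgehog genes Gli1 and Ptch1 rose and fell together, also after the follicle genes were taken into account, and so did the pairs Msx2 with Dlx3 and Wnt10b with Lef1. Levels are given as log2 of the processed signal minus the 75th percentile of the array, so that 0 is the 75th percentile and 1 unit is a doubling. Levels of different genes come from different probes and are not compared.

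**Figure D1:**
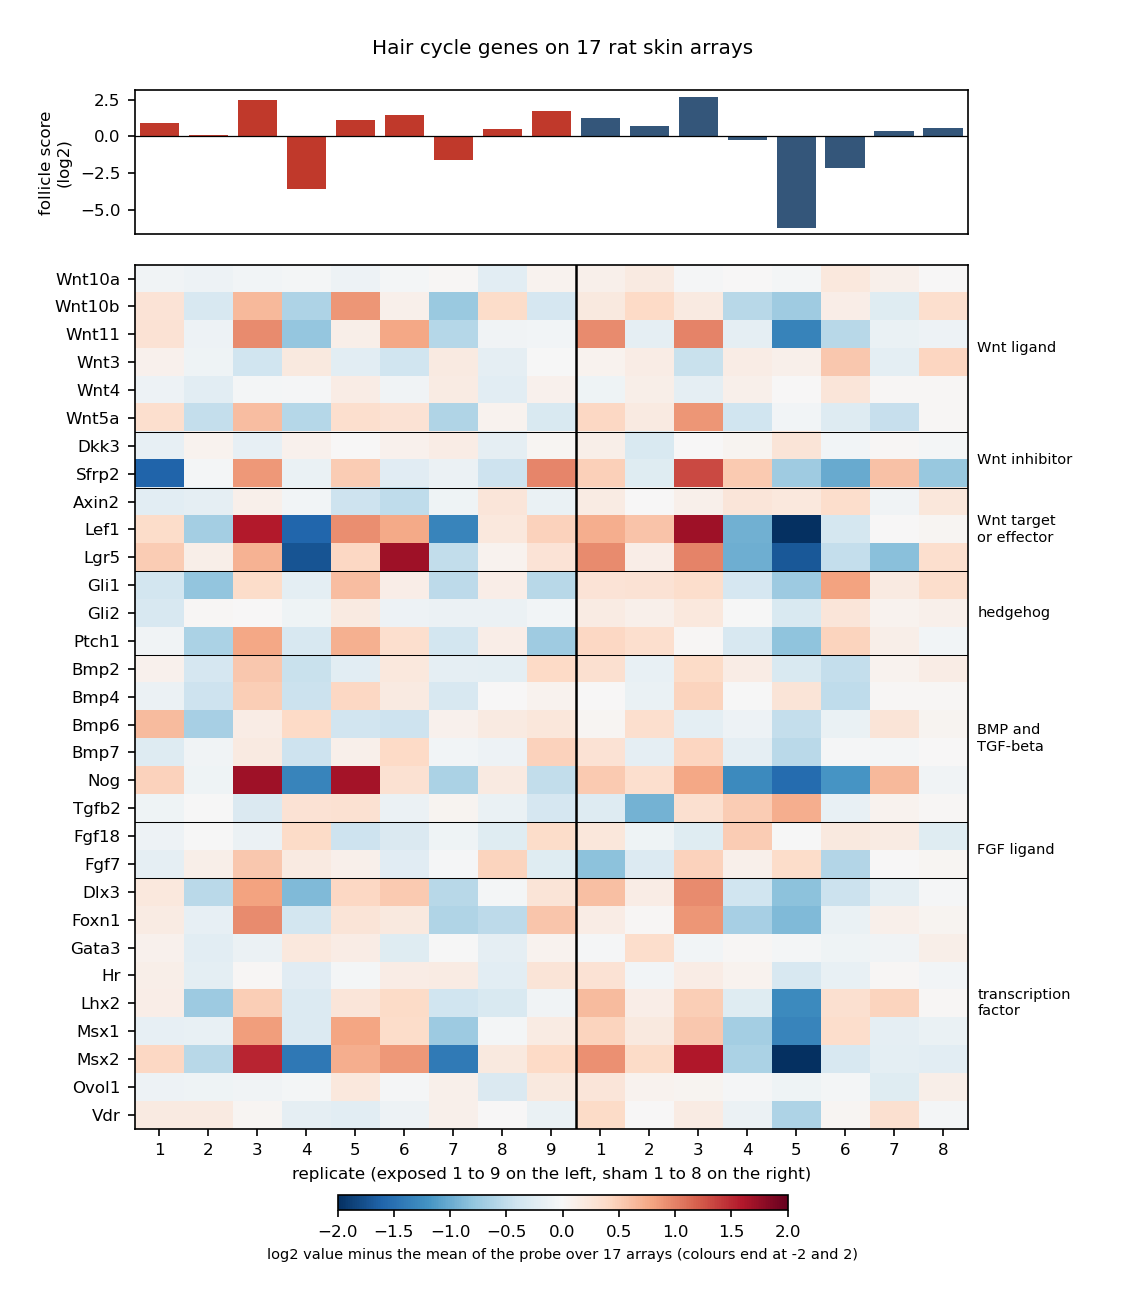
Heat map of the log2 level of 31 hair cycle genes (one per line, grouped by role) on 9 exposed arrays at the left and 8 sham arrays at the right, each minus the mean of its probe over the 17 arrays, below bars of the follicle score of each array. Lef1, Msx2, Lgr5 and Nog show the deepest colours and follow the bars, with sham replicate 5 low, while Wnt10a, Wnt4 and Ovol1 stay pale.

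Arrays differed somewhat in depth. The 75th percentile of the signal ran from 1170 to 1703 on exposed arrays and from 1077 to 1576 on sham arrays. Between 67.2% and 70.8% of probes lay well above background on exposed arrays, and between 66.7% and 69.6% on sham arrays. The part of depth in the numbers of exposed and sham arrays given below for dim genes was not tested. On all arrays 0 spots were saturated, and the number of arrays limits the precision. The label of skin was met by its markers: all 8 epidermal genes with a named probe lay well above background on all 17 arrays, as did all 6 of the sebaceous gland and all 6 of fibroblasts. The arrays differed in the messenger RNA of follicle and muscle proteins. A follicle score, the mean over 19 of 25 listed inner root sheath and hair shaft genes (keratins and their partners, none of the 43 genes) of the log2 level minus its mean over the arrays, ran from -3.59 to 2.49 in exposed skin and from -6.21 to 2.68 in sham skin. On sham replicate 5, at -6.21, 12 of the 19 genes were not well above background. A skeletal muscle score over 12 genes ran from -3.01 to 5.44 in exposed skin and from -3.02 to 4.76 in sham skin.

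Of the 12 genes without a usable level, 6 had no named probe: the Wnt antagonists Sfrp1 and Wif1, the ligand Eda, the transcription factors Sox9 and Cux1, and the R-spondin receptor Lgr6. The other 6 had probes that were too dim. Sonic hedgehog (Shh), Dkk1 and Fgf10 were well above background on 0 arrays. The Wnt antagonist Dkk2 and the ectodysplasin receptor Edar each reached that level on 1 exposed array and on 0 sham arrays. Fgf5, which ends the growth phase in mice, did so on 5 exposed and 2 sham arrays. No group difference is given for these 6. Among the 31 kept genes 27 were well above background on all 17 arrays. The remaining 4 were Fgf7 (9 exposed and 6 sham arrays), Nog (8 and 5), Lgr5 (6 and 4) and Sfrp2 (4 and 4), and part of their spread lies near the floor of the scanner. Over the arrays the SD of the 31 genes ran from 0.11 for Wnt10a to 1.12 for Lef1 with a median of 0.37, against a median of 0.19 over the kept probes.

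Among the probes used, that of the Wnt transcription factor Lef1 followed the follicle genes most steeply. Its promoter is shown here with those of Ptch1 and Axin2, targets of the hedgehog and the Wnt pathway in mice and humans. Each is the RefSeq window of 250 bases before to 50 bases after the gene start in the rat assembly GRCr8, read 5′ to 3′ on the strand of the gene, and capitals mark a motif. The GLI core TGGGTGGTC is in capitals in Ptch1 (chr17:1555321-1555620, plus strand) and begins 172 bases before the start. The TCF/LEF core CTTTGA is in capitals in Axin2 (chr10:94398535-94398834, plus strand), where it occurs at -232 and -132. Lef1 (chr2:222340463-222340762, plus strand) holds no capitals, since none of the 5 motifs searched was found in its window. The choice of these 3 was made after their values were seen.
Ptch1: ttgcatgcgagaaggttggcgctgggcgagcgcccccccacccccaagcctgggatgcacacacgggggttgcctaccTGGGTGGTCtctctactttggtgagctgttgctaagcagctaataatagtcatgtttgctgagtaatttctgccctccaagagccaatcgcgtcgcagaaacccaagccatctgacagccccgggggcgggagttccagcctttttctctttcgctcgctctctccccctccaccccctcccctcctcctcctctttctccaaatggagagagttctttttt
Axin2: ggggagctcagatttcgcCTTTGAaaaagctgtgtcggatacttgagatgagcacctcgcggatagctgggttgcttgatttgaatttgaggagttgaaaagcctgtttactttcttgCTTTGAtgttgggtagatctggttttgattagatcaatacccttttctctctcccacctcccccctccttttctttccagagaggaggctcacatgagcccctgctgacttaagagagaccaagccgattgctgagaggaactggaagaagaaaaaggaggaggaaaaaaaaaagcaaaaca
Lef1: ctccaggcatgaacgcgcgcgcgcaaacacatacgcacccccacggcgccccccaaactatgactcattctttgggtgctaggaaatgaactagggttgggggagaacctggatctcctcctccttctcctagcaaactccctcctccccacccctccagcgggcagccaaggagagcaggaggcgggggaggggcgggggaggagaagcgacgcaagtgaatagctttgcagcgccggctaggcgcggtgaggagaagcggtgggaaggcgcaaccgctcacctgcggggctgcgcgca

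The motifs, searched on both strands, were the TCF/LEF cores CTTTGA and CTTTGT, the GLI core TGGGTGGTC, the SMAD palindrome GTCTAGAC and the TATA box TATAAA. A window was present for 30 of the 43 genes. The GLI core was found in 1 of the 30 windows, that of Ptch1, and in 0.385% of 33469 rat promoters of the same length. One or the other TCF/LEF form was found in 5 of the 30 (Axin2, Dkk1, Fgf5, Tgfb2 and Wnt3), against 31.4% of all promoters. The TATA box stood in 3 windows (Dkk1, Fgf5 and Fgf7), against 14.2%, and the SMAD palindrome in 0, against 0.197%. Of the 11 genes that followed the follicle score 7 had a window, and 0 of these 7 held any of the motifs. The share of all promoters with any of the motifs was not taken. G and C made up 48.3% (Foxn1) to 80.3% (Lhx2) of these 7 windows. The shares over all promoters were not matched for base content, so the counts do not show that a motif is lacking in these genes. A match describes letters in a window and is no evidence of binding.

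The comparison of exposed with sham skin asked whether chronic 94 GHz exposure altered the expression of these genes. None of the 31 passed the test (limma, Benjamini-Hochberg adjustment over 20709 kept probes, smallest adjusted p of the 31 genes 0.982), and 0% of all kept probes passed it. At an unadjusted p under 0.05 there were 2 of the 31, Axin2 and Wnt10a, both lower in exposed skin, where 4.55% of all probes reached that level, 3.96% lower and 0.584% higher. The median difference was -0.025 over the 31 genes and -0.025 over all kept probes, and 13 of the 31 differences were positive and 18 negative. The 95% interval lay within 1.5-fold either way for 20 genes and within 2-fold for 27. The plot of the differences with their intervals shows the widest intervals for the genes that varied most among all arrays.

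**Figure D2:**
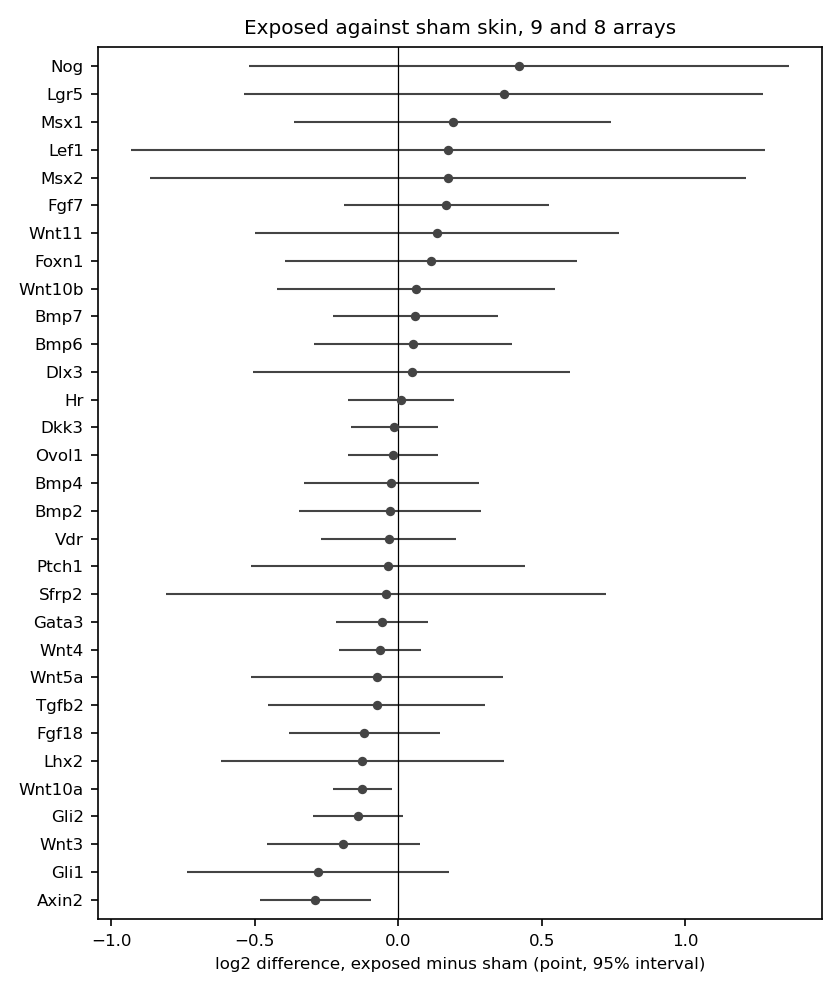
Log2 difference, exposed minus sham, of 31 hair cycle genes, as points with 95% intervals from limma over 9 exposed and 8 sham arrays. The differences run from -0.29 for Axin2 to 0.42 for Nog, and the intervals of Axin2 and Wnt10a lie below 0 before adjustment for the number of probes.

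Axin2, a feedback inhibitor that the Wnt pathway switches on, had a lowest, median and highest level of -2.21, -1.85 and -1.46 in exposed skin and of -1.77, -1.52 and -1.35 in sham skin. The groups overlapped, with 6 of 9 exposed arrays below every sham array. The log2 difference was -0.29, a 0.818-fold level (95% interval 0.715 to 0.936; limma adjusted p = 0.982). On slides 1, 2, 3 and 4, which held 3 exposed and 2 sham, 4 and 2, 1 and 1, and 1 and 3 arrays, it was -0.18, -0.43, 0.04 and -0.31. With the follicle score as a second term, chosen after the data were seen, it was -0.28 (-0.47 to -0.08; limma adjusted p = 0.861).

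Wnt10a, a canonical Wnt ligand made in mouse epidermis and follicle placodes, had the levels 0.79, 0.95 and 1.09 in exposed skin and 0.97, 1.06 and 1.22 in sham skin. Again 6 of 9 exposed arrays lay below every sham array, and 4 of 8 sham arrays lay above every exposed one. The difference was small, at -0.13 or 0.916-fold (95% interval 0.853 to 0.985; limma adjusted p = 0.982), and it was -0.22, -0.03, -0.17 and -0.03 on slides 1 to 4. Wnt3, another canonical ligand, had 0.27 as its median in exposed skin (lowest -0.04, highest 0.55) and 0.49 in sham skin (-0.09 and 0.90), and its difference was -0.19 (-0.46 to 0.07).

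The hedgehog genes all lay on the negative side without passing the test. Gli1, a transcription factor that is itself a target of the pathway, had the levels -2.72, -2.13 and -1.31 in exposed skin and -2.66, -1.65 and -1.12 in sham skin. Its difference was -0.28 (95% interval -0.74 to 0.18), or -0.19 without sham replicate 6, and it was -0.55, 0.00, 0.86 and -1.01 on slides 1 to 4. Gli2, the main transcriptional activator of the pathway, had the levels -1.78, -1.55 and -1.29 in exposed skin and -1.76, -1.36 and -1.22 in sham skin. Its difference was -0.14 (-0.30 to 0.02; limma adjusted p = 0.982), with 1 of 9 exposed arrays above the sham mean. Ptch1, the receptor, differed by -0.04 (-0.51 to 0.44).

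Fgf7, the keratinocyte growth factor, lay at -5.16, -4.81 and -4.38 in exposed skin and at -5.73, -4.89 and -4.45 in sham skin, a difference of 0.17 (-0.19 to 0.53). It was 0.06 without sham replicate 1, 0.10 without sham replicate 6 and 0.11 without exposed replicate 3. This gene was dim on 2 sham arrays, and its difference was -0.03 after normexp correction of the background, scaled to the 75th percentile. Hr, a nuclear corepressor whose loss makes mice hairless, was measured on all 17 arrays. Its levels were -1.49, -1.23 and -0.9998 in exposed skin and -1.57, -1.27 and -0.96 in sham skin, which nearly coincide. The difference was 0.0099 (-0.18 to 0.20), a fold of 1.01 with a 95% interval of 0.886 to 1.14. The sign of so small a value changed with the settings.

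Differences of the other genes were no firmer. Nog, Lgr5, Msx1, Lef1 and Msx2 had the largest positive values, at 0.42, 0.37, 0.19, 0.17 and 0.17. Each had an interval that reached past 0 on both sides, as far as -0.93 to 1.28 for Lef1. On slide 3, where sham replicate 5 was the 1 sham array, the differences of Lef1, Msx2, Lgr5 and Nog were 2.69, 2.47, 1.76 and 1.73. On slide 1 they were -0.22, -0.18, -0.09 and 0.26, on slide 2 -0.68, -0.79, -0.04 and 0.25, and on slide 4 0.57, 0.63, 0.60 and -0.29.

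Across the arrays the clearest pattern followed the follicle score. With that score 11 of the 31 genes rose and 0 fell (limma slope, adjusted p under 0.05), whereas 3.18% of 20690 probes rose and 1.42% fell. The median slope was 0.081 log2 units per unit of the score over the 31 genes and -0.0047 over all probes, and 22 of the 31 slopes were positive. By role, 5 of 9 transcription factors rose, 2 of 3 Wnt targets or effectors, 3 of 6 BMP and TGF-beta genes and 1 of 6 Wnt ligands. Among the Wnt inhibitors 0 of 2 rose, as did 0 of 3 hedgehog genes and 0 of 2 FGF ligands. The FGF ligand Fgf5 had been left out as too dim. With no filter on dim probes it passed, with a slope of 0.33. Its second probe, well above background on 0 arrays, gave 0.037. In whole skin, fewer cells of a type and less RNA per cell cannot be told apart. Arrays may also share an animal, so that the number of independent points may be below 17.

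**Figure D3:**
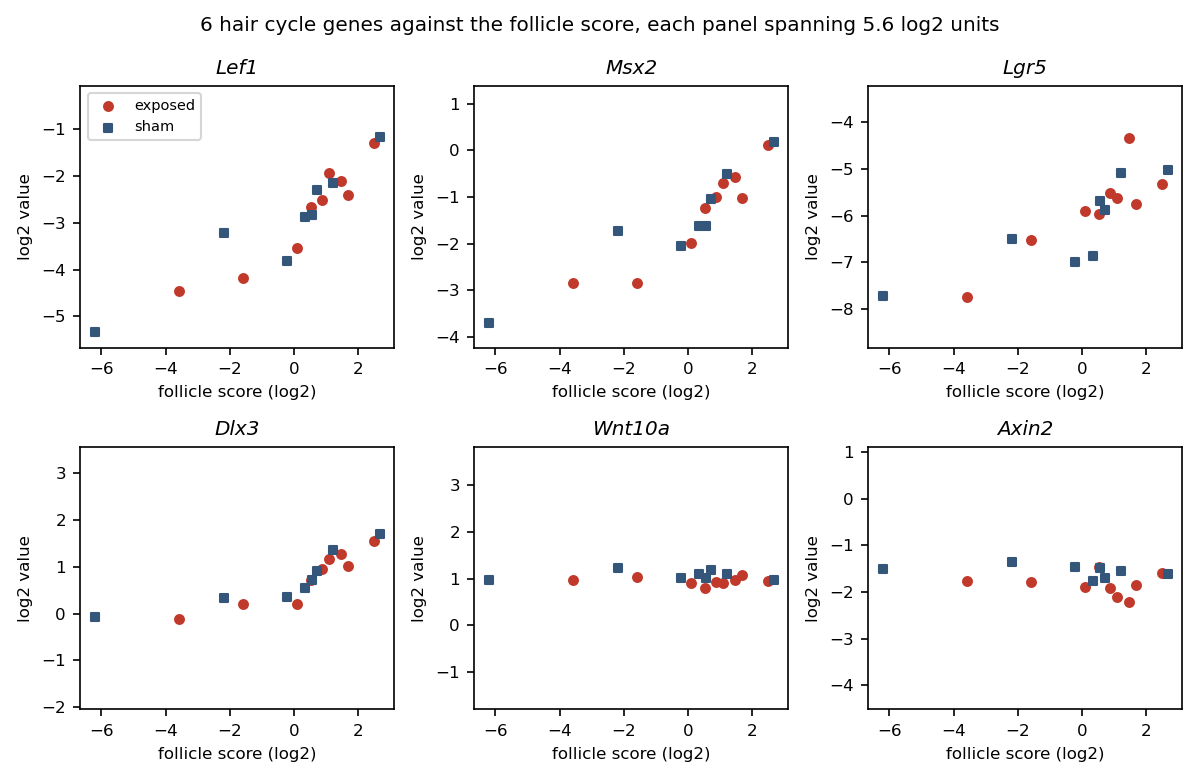
Log2 level of 6 hair cycle genes (vertical axis, each panel spanning the same number of log2 units) against the follicle score (horizontal axis, log2) on 9 exposed arrays (circles) and 8 sham arrays (squares). Lef1, Msx2, Lgr5 and Dlx3 climb with the score in both groups, and the slopes of Wnt10a (-0.0031) and Axin2 (-0.029) did not pass the test.

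Lef1, which carries beta-catenin to its target genes in the hair matrix and precortex, had the steepest slope among the probes used. Its levels were -4.46, -2.50 and -1.29 in exposed skin and -5.34, -2.85 and -1.17 in sham skin, an 18.0-fold range over all arrays with both extremes in sham skin. The level rose by 0.45 per unit of the score (95% interval 0.36 to 0.55; limma adjusted p = 5.81e-06). Over 17 arrays Pearson's r was 0.92 and Spearman's rho 0.95, each with a permutation p of 1e-05, the smallest that the permutations can give. Without sham replicate 5 and exposed replicate 4, the arrays farthest from the median score, r was 0.86, and with slide means removed it was 0.90. A dimmer second probe of the gene gave a slope of 0.47.

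Msx2, a homeobox factor of the hair matrix that BMP signals switch on, behaved in the same way. It had the levels -2.85, -1.03 and 0.11 in exposed skin and -3.70, -1.62 and 0.17 in sham skin, a 14.6-fold range. The slope was 0.42 (0.33 to 0.52; limma adjusted p = 9.45e-06), with r = 0.92 and rho = 0.95 (permutation p = 1e-05 for each), and r was 0.87 without the 2 farthest arrays. A dimmer second probe of Msx2 gave a slope of 0.50, above that of either Lef1 probe. Dlx3, a homeobox factor needed for the mouse hair shaft, had the levels -0.12, 0.96 and 1.56 in exposed skin and -0.07, 0.64 and 1.70 in sham skin. Both groups covered the same span, and the slope was 0.21 (0.15 to 0.28; limma adjusted p = 0.00042), with r = 0.86 and rho = 0.97.

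Foxn1, the gene lost in nude mice, which drives keratin expression in the shaft, had the levels -5.10, -4.34 and -3.56 in exposed skin and -5.39, -4.46 and -3.62 in sham skin. Its slope was 0.18 (0.11 to 0.25; limma adjusted p = 0.0055), and 0.0997 under normexp with the 75th percentile, still past the threshold. Msx1, a relative of Msx2, had the levels -3.51, -2.83 and -1.96 in exposed skin and -4.12, -2.76 and -2.25 in sham skin, with a slope of 0.19 (0.10 to 0.27; adjusted p = 0.011). Lhx2, a factor of mouse follicle stem cells and early buds, had the levels -1.50, -0.84 and -0.27 in exposed skin and -2.04, -0.54 and -0.13 in sham skin. Its slope of 0.16 (0.08 to 0.24; limma adjusted p = 0.021) leaned on the lowest arrays, and r fell to 0.44 without the 2 farthest, against 0.72 on all 17.

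Lgr5 encodes an R-spondin receptor that marks cycling follicle stem cells in mice. Its levels were -7.75, -5.75 and -4.33 in exposed skin and -7.72, -6.19 and -5.03 in sham skin, where the lowest values are those of arrays on which the probe was not well above background. The slope was 0.34 (0.23 to 0.46; limma adjusted p = 0.00088). Under normexp background correction with the 75th percentile Lgr5 was the 1 gene of the 11 that no longer passed, and its slope was 0.07. With quantile normalization in that setting it passed, at 0.10. Wnt11, a ligand that signals mostly without beta-catenin, had the levels -3.46, -2.74 and -1.75 in exposed skin and -4.02, -2.85 and -1.70 in sham skin, and a slope of 0.25 (0.18 to 0.32; limma adjusted p = 0.00011). A second probe of Wnt11 gave 0.20.

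Of the 6 BMP and TGF-beta genes 3 rose. Noggin (Nog), a secreted antagonist that binds BMP2 and BMP4, had the levels -6.38, -4.87 and -3.37 in exposed skin and -6.60, -4.92 and -4.29 in sham skin, and a slope of 0.34 (0.20 to 0.47; limma adjusted p = 0.0059), which was 0.15 under normexp with the 75th percentile, still past the threshold. Bmp2, a BMP ligand of the matrix, had the levels -1.40, -1.13 and -0.40 in exposed skin and -1.43, -0.84 and -0.57 in sham skin. Its slope was 0.10 (0.05 to 0.15; adjusted p = 0.022), and it no longer passed without exposed replicate 3 or sham replicate 3. Bmp7, a related ligand, had the levels 0.95, 1.33 and 1.84 in exposed skin and 0.83, 1.34 and 1.80 in sham skin, and a slope of 0.098 (0.056 to 0.14; adjusted p = 0.0088). It no longer passed without the 2 farthest arrays, where r was 0.59, against 0.78 on all 17.

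Over the 11 genes r ran from 0.72 to 0.92 and rho from 0.68 to 0.97 on 17 arrays, with permutation p of 0.00365 or below in 31 correlations computed per score. The 11 were picked by their slope on the same score and arrays. High values therefore follow from the choice, and they describe these genes without adding support. Within the exposed arrays r ran from 0.60 to 0.93, within the sham arrays from 0.76 to 0.93, and with slide means removed from 0.63 to 0.90. On slide 2, which held 6 arrays, it ran from 0.69 to 0.96. The other slides held too few arrays for a value. A test of the slope in exposed skin against that in sham skin, added after the data were seen, found a difference for 0 of the 31 genes and for 0 of 20690 probes (limma, 542 probes at an unadjusted p under 0.05). At that unadjusted level there was 1 of the 31, Bmp4, with a slope higher by 0.13 in exposed skin (0.0066 to 0.25).

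Sham replicate 5 was the lowest array for 8 of the 11 genes. Without it 11 genes passed, of which 9 were shared: Lhx2 and Msx1 dropped out and Bmp4 and Wnt5a came in. Without both farthest arrays 10 rose, 8 of them shared, and Wnt3 fell. Bmp7, Lhx2 and Msx1 dropped out there, and the slopes of Dlx3, Foxn1 and Bmp2 were 0.33, 0.29 and 0.18. With slide as a block 7 rose, and Bmp2, Foxn1, Lhx2 and Msx1 no longer passed.

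**Figure D4:**
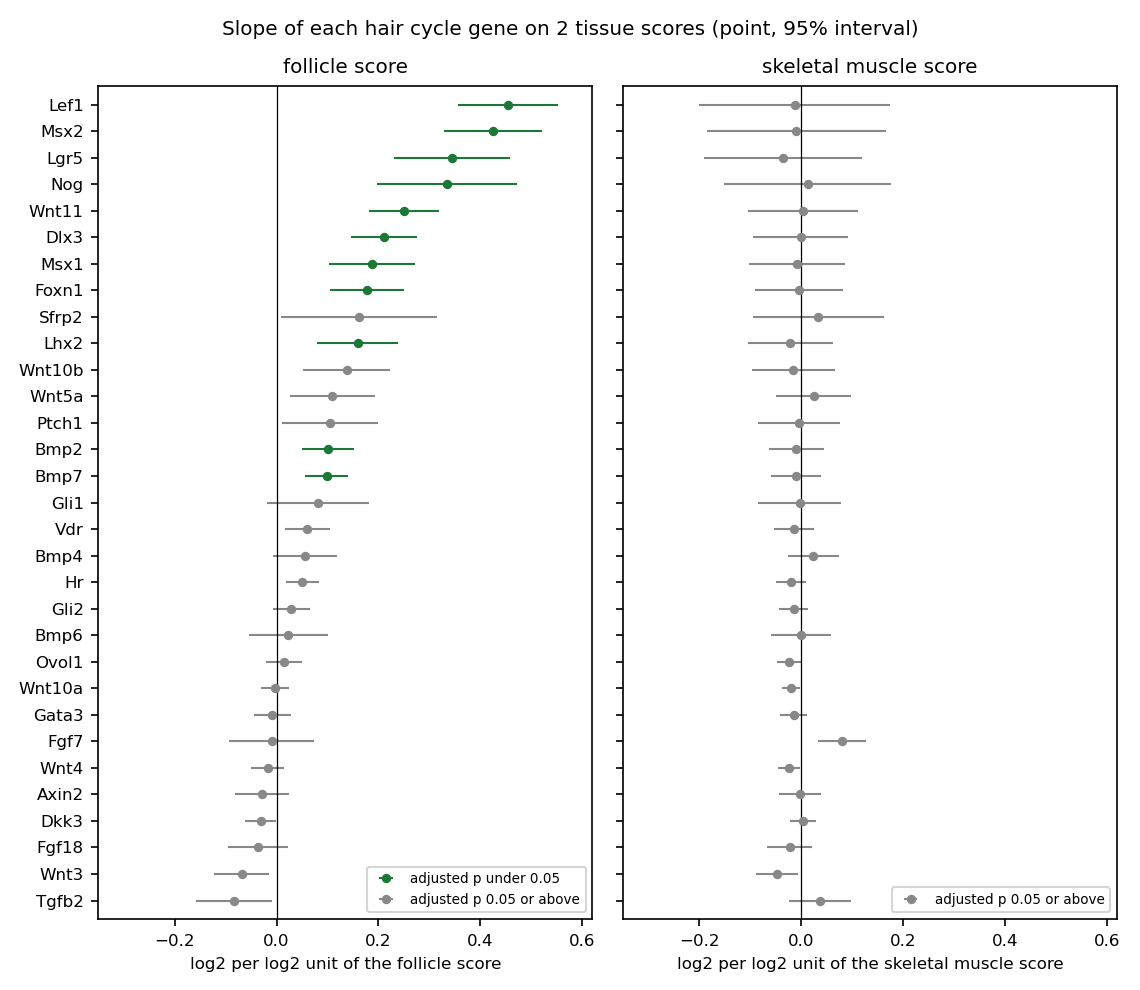
Slope of each of 31 hair cycle genes on the follicle score at the left and on the skeletal muscle score at the right, in log2 units per unit of the score, as points with 95% intervals from limma on 17 arrays. Green points (11, from Bmp7 at 0.098 to Lef1 at 0.45) passed the test with the follicle score, and 0 passed it with the muscle score.

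The remaining 20 genes did not pass with the follicle score. Closest were Wnt10b, a canonical ligand that starts mouse hair growth, with a slope of 0.14 (0.05 to 0.22; limma adjusted p = 0.060), and Hr, at 0.051 (0.018 to 0.084; adjusted p = 0.071). Hr passed without exposed replicate 7 and Wnt10b without exposed replicate 9 or sham replicate 6. For Hr r was 0.36 without the 2 farthest arrays, against 0.65 with them. Vdr, the partner of Hr, had 0.060 (adjusted p = 0.10), but its r went to -0.021 from 0.59 once the 2 farthest arrays were left out. Wnt5a, a ligand of the mouse dermal papilla, had 0.11 (adjusted p = 0.12), and its r was 0.75 without those arrays, against 0.56 with them. Bmp4 showed the same shift, with 0.85 without them and 0.42 with them. Wnt3 had the second most negative slope, -0.068 (-0.12 to -0.014; adjusted p = 0.13), after Tgfb2 at -0.083, for which a second kept probe gave -0.0075. Slopes of Wnt10a, Gata3, Fgf7, Wnt4 and Ovol1 lay between -0.017 and 0.015, and a second probe of Ovol1 gave 0.051. Gata3, needed for the mouse inner root sheath, had a slope of -0.0082 (-0.045 to 0.029).

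With the skeletal muscle score 0 of 31 genes passed, where 0.899% of 20696 probes rose and 0.0338% fell (limma, smallest adjusted p of the 31 genes 0.145). At an unadjusted p under 0.05 there were 5 of the 31, against 1761 of the 20696 probes (932 rising and 829 falling). Among the 5 genes Fgf7, made by dermal mesenchyme, had the largest slope, 0.080 per unit (0.033 to 0.13). Wnt3, Wnt4, Wnt10a and Ovol1 had negative slopes. These counts depended on the setting. With slide as a block 1 of the 31 reached that unadjusted level, against 2533 of the 20696 probes. The slopes were then 21 positive and 10 negative, where they had been 9 and 22. Under normexp with the 75th percentile there were 2 of the 31, against 1271 probes.

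Markers of other cell types were set beside the follicle result. Over all probes 3.18% rose with the follicle score and 1.42% fell. Of 7 dermal papilla genes 0 passed with it, and likewise 0 of 6 sebaceous gland, 6 adipocyte and 6 fibroblast genes. The 5 smooth muscle, 5 endothelial and 4 immune genes also had 0. Counts of 0 in lists this short lie near those shares and do not tell these genes from other probes. Krt75, a keratin of the companion layer inside the outer root sheath, rose by 0.68 per unit, and the bulge keratin Krt15 fell by 0.086. The epidermal keratin Krt1 fell by 0.089 (1 of 8 epidermal genes), the melanocyte gene Mlana by 0.17 (1 of 4) and the Schwann cell gene Sox10 by 0.11 (1 of 4). The mean over the dermal papilla list of the log2 level minus its mean over the arrays ran from -0.36 to 0.33 in exposed skin and from -0.23 to 0.19 in sham skin. That of the epidermal list ran from -0.45 to 0.22 in exposed skin and from -0.16 to 0.21 in sham skin. The part of these cell types in the result was not tested.

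Further genes of the same pathways were read in the same fits, where 3.18% of all probes rose with the follicle score and 1.42% fell. In the Wnt pathway 6 of 33 other genes rose with the follicle score and 0 fell: the receptors Fzd3 (0.20) and Fzd1 (0.062), the feedback gene Nkd2 (0.093), the R-spondin receptor Lgr4 (0.091), beta-catenin itself (Ctnnb1, 0.088) and its brake Apc (0.047). In the BMP and TGF-beta pathways 3 of 26 rose and 1 fell. Bambi, a decoy receptor that BMP signals switch on, rose by 0.42 (0.34 to 0.50; limma adjusted p = 1.24e-06), the inhibitors Smad7 and Smad6 by 0.11 and 0.10, and Bmp3 fell by 0.12. In the FGF pathway 1 of 14 genes rose, the FGF target Etv5 (0.10), and 1 of 15 other follicle regulators, Runx1 (0.048). Hedgehog and ectodysplasin lists had 0 of 6 and 0 of 4. Counts of 0 or 1 gene in lists of this length lie near the shares over all probes. Between exposed and sham skin 0 genes of these 6 lists passed the test (limma, 0% of all probes).

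The 3 genes with the largest SD over the arrays were also matched to the named genes most like them. For Lef1 these were Rnf180, Entpd3 and Fbp1, with Pearson's r of 0.976, 0.969 and 0.962 over 17 arrays. Rnf180 and Entpd3 were among the closest to Msx2 as well, with r of 0.976 and 0.973, and Bambi had 0.974. For Nog they were Smim38, Ston1 and Krtap10-10l2, a keratin-associated protein gene, at 0.959, 0.958 and 0.958.

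Pairs of genes linked in a pathway were compared over the arrays. Of 22 pairs set 13 had both genes measured, and 5 passed (limma, second gene regressed on the first, adjusted over all kept probes). Gli1 and Ptch1, both of them switched on by hedgehog signalling, had r = 0.89 (permutation p = 1e-05) and rho = 0.88 (permutation p = 4.00e-05), with a limma adjusted p of 0.0049, where 0.0724% of all probes passed with Gli1. Ptch1 was at -4.22, -3.57 and -2.73 in exposed skin and at -4.31, -3.43 and -3.05 in sham skin. Within exposed skin r was 0.95 and within sham skin 0.90. Without the 2 arrays farthest in Gli1 r was 0.84, with slide means removed 0.94 and on slide 2 alone 0.90. After the follicle score was removed from both genes it was 0.87 (permutation p = 2.00e-05). The promoter window of Ptch1 shown above holds the GLI core, but a link between that match and the correlation was not tested. Shh itself was too dim to compare.

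**Figure D5:**
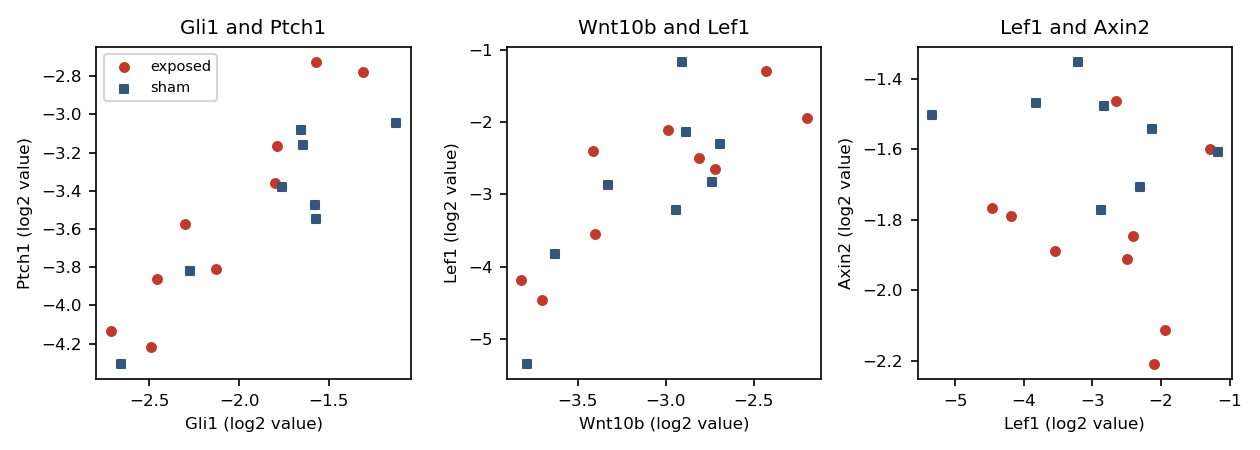
Log2 levels of 3 pairs of hair cycle genes on 9 exposed arrays (circles) and 8 sham arrays (squares): Gli1 and Ptch1, Wnt10b and Lef1, and Lef1 and Axin2. The first pair lies along a line (r = 0.89), the second less tightly (r = 0.81), and the third did not pass the test (r = -0.21).

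Wnt10b and Lef1 also moved together, with r = 0.81 (permutation p = 8.00e-05) and rho = 0.75 (permutation p = 0.0010). The limma adjusted p was 0.012, where 0.531% of probes passed with Wnt10b. Without exposed replicate 3 the adjusted p was 0.0505. Pearson's r was 0.73 both without the 2 farthest arrays and after the follicle score was removed, and 0.82 with slide means removed. Wnt10b lay at -3.82, -2.99 and -2.20 in exposed skin and at -3.79, -2.92 and -2.69 in sham skin. Wnt10a, its nearest relative, had r = 0.0016 with Lef1 (permutation p = 0.995), where 0% passed with Wnt10a.

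The matrix factors made up the rest. Msx2 and Dlx3 had the highest value, r = 0.96 and rho = 0.98 (permutation p = 1e-05 for each; limma adjusted p = 3.47e-07, where 6.56% of probes passed with Msx2), and r was 0.84 after the follicle score was removed. Foxn1 and Msx2 had r = 0.87 and rho = 0.89 (permutation p = 1e-05 for each; limma adjusted p = 0.0012, where 6.72% passed with Foxn1), and r was 0.59 after removal. Bmp2 and Msx2 had r = 0.69 and rho = 0.70 (permutation p = 0.0020 and 0.0022; limma adjusted p = 0.047, where 2.4% passed with Bmp2). This call was lost under 4 of 10 other settings, slide as a block among them (limma adjusted p = 0.161), and in 13 of the 17 fits that left out 1 array. For this ligand and its target r was 0.094 after the follicle score was removed (permutation p = 0.716).

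The other 8 pairs did not pass. Axin2 had r = -0.21 with Lef1 (permutation p = 0.409; rho = -0.25, permutation p = 0.320), where 6.12% of probes passed with Lef1. With Lgr5 it had r = -0.37 (permutation p = 0.147; rho = -0.33, permutation p = 0.193), where 3.74% passed with Lgr5. The slope of Axin2 on the follicle score was -0.029 (-0.082 to 0.024), and its window holds the TCF/LEF core at 2 positions. Bmp4 and Nog had r = 0.60 and a limma adjusted p of 0.22, where 0.101% passed with Bmp4. Without sham replicate 5 this pair passed (limma adjusted p = 0.0139). Hr and Vdr had r = 0.50 on 17 arrays and 0.059 without sham replicates 5 and 1, and Hr and Foxn1 had 0.51 and 0.41, where 0.155% passed with Hr. Bmp6 and Lgr5 had r = -0.10, where 0% passed with Bmp6, and Wnt5a and Sfrp2 had r = 0.19, where 1.19% passed with Wnt5a.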

How the data were processed

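The labels' protocols describe total RNA from skin explants, amplified and labelled with Cy3, on 1-colour arrays. The deposited scanner files hold the fluorescence intensity of each spot on a linear scale, which the authors made with Agilent Feature Extraction 10.7.3.1 (protocol GE1_107_Sep09), per the file headers. Its processed signal is background-subtracted and detrended within an array, and its quality flags were deposited beside it. The deposited value table holds log2 values of 14853 probes, each with a median of 0 over the arrays; each column had a correlation of 0.969 to 0.999 with its own array, column medians ran from -0.037 to 0.041, and how it was scaled is not given in the sources used here. This table was an alternative.

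Control spots and spots flagged as outliers were left out, spots of a probe were averaged, and log2 of the processed signal minus the 75th percentile of the array was taken for 30367 probes. A probe was taken as well above background where 50% or more of its spots on that array carried the flag, and the 20709 probes reaching this on 8 or more arrays were kept. Sequence names were matched to RefSeq symbols of the assembly GRCr8, used for names alone, since the grid follows an older build, and 17998 probes received a symbol. Where several probes of a gene were kept, the one with the highest mean was used. The 43 genes, the marker and pathway lists and the pairs were chosen with earlier results of these data known, and the score lists were taken over from that earlier work.

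Tests were limma 3.58.1 in R 4.3.3 (lmFit, eBayes) with p-values adjusted by Benjamini-Hochberg across the kept probes (threshold 0.05); fits on a score left out the genes of that score. Correlations had two-sided permutation tests of 100000 resamples in numpy 2.4.6, with ranks from scipy 1.17.1. Values by group were given for the genes past the threshold with a score, for the 6 with the smallest p between exposed and sham skin and for Hr; other genes are named by their slopes or pairs. The fit was tested on simulated arrays. Slides were read from the sample titles. Alternatives were other scales, normexp background correction, other filters, slide as a block, array weights, the value table, other probes or score genes, and leaving out each array.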

Additional observations from a re-analysis of the deposited data

Results flagged for a closer look

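Each of the 31 genes was searched for an array far from the rest of its group by Dixon's test, and 3 of 62 groups of arrays had one, where chance gives about 1 in 20 groups, or 3.1. Lhx2 was lowest on sham replicate 5, at -2.04 against -1.01 on the next sham array. Among the sham arrays Gli2 was lowest on the same array, at -1.76 against -1.47, while exposed replicate 1 had -1.78. Gata3 was highest on sham replicate 2, at 0.85 against 0.61. Sham replicate 5 also had the lowest follicle score of the 17 arrays, -6.21, and was the lowest array for 11 of the 31 genes. The part of this array in these values was not tested further.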

How the results depend on the processing

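The count of 11 genes rising with the follicle score was 7 with slide as a block and 7 of 20 measured in the deposited value table, where all 7 of the 11 that it holds passed. With no filter on dim probes it was 12 of 37, with Fgf5 added. It was 4 with exposed arrays only and 2 with sham arrays only, fits with fewer arrays that were added after the data were seen. It ran from 10 to 12 as each array was left out, 8 of the 11 passing every time. In place of 0 genes falling there was 1, Wnt3, without the 2 arrays farthest in the score and with both scores in one fit. The counts between exposed and sham skin and with the muscle score were 0 under every alternative run. The count of 5 pairs was 2 of 3 measured in the value table and 3 to 5 as each array was left out, with 3 without exposed replicate 3, where Bmp2 with Msx2 and Wnt10b with Lef1 were lost. It was 4, without Bmp2 and Msx2, with slide as a block, array weights, the median scale or no filter. The difference of Fgf7 was -0.025 under normexp background correction with the 75th percentile. That of Hr was -0.00084 with slide as a block, -0.028 with the follicle score as a second term, and from -0.035 to 0.052 as each array was left out, reversing without exposed replicates 1 (-0.0039), 6 (-0.0071), 7 (-0.011) and 9 (-0.021) and sham replicates 5 (-0.035) and 6 (-0.010). The cause was not tested. No paired analysis was possible because the labels give no replicate numbers shared between the groups. Normexp, with an offset of 50, was run on median pixel signals, the only ones used here. Signals near background limit Lgr5, Nog, Sfrp2 and Fgf7.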
